A study of Mus musculus with 2 samples.

Results

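The genes examined encode 35 enzymes of the tricarboxylic acid (TCA) cycle and of the reactions that feed or drain it through pyruvate, glutamine and alpha-ketoglutarate. They were chosen as a named list, and their open chromatin was read from the peaks assigned to each gene symbol in the peak lists of 2 ATAC-seq libraries of mouse regulatory T (Treg) cells. ATAC-seq locates accessible DNA by inserting adapters with the Tn5 transposase. Of the 35 genes, 33 had at least 1 peak in wild-type (WT) Treg cells and 31 in Treg cells lacking transketolase, and together they held 56 of 34440 WT peaks and 41 of 19680 knockout peaks. The WT library came from Foxp3cre/+ female mice, and the knockout library, TKT cKO Treg, from Foxp3cre/+ TKTfl/fl female mice. All animals were C57BL/6, aged 7 weeks and untreated, and all carried a single Foxp3-Cre allele. Each reaction used 50000 CD4+CD25+YFP+ cells isolated by flow cytometry from the spleen and lymph nodes. Cre is driven by Foxp3, the lineage factor of Treg cells. Foxp3 lies on the X chromosome, so in such females, which the labels call chimeric, only part of the Treg cells express Cre. Whether animals were pooled is not given in the sources used here.

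The TCA cycle oxidises acetyl-CoA in the mitochondrial matrix and passes electrons to the respiratory chain. Pyruvate enters as acetyl-CoA through pyruvate dehydrogenase or as oxaloacetate through pyruvate carboxylase, and glutamine enters as alpha-ketoglutarate through glutamate. Alpha-ketoglutarate is also a substrate of the dioxygenases that demethylate DNA and histones, which succinate, fumarate and 2-hydroxyglutarate can inhibit, and in Treg cells demethylation of Foxp3 regulatory DNA stabilises the lineage. Transketolase belongs to a different route, the non-oxidative pentose phosphate pathway.

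There was 1 library per genotype. Every difference therefore compares 2 libraries, has no replicate check and carries no p-value. Read depth was unknown, and a peak missing from a list cannot be told from one below the caller's threshold. The WT list was 1.75 times as long as the knockout list. Of 7 Treg and CD4 T cell markers, 6 had peaks in both lists (Foxp3, Il2ra, Ctla4, Ikzf2, Cd4 and Cd3e, with none assigned to Cd3g). Of 20 markers of B, myeloid, CD8 T or NK, erythroid and stromal cells, 9 had a WT peak and 11 a knockout peak. Tkt itself had 1 promoter peak in each library. The labels do not say which part of Tkt is floxed, so this peak does not check the genotype.

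Promoter sequences of 3 genes are shown to put letters beside the strongest and the missing peaks. Ogdh and Pdhb had the highest scoring promoter peaks of the list in WT, and Idh3b had a WT promoter peak with no counterpart in the knockout. Each run holds the 250 bases just upstream of a RefSeq transcription start site (TSS; for Ogdh, which has several, the one farthest upstream), 5′ to 3′ on the strand of the gene, build GRCm38.p6, which shares its coordinates with mm10. Capitals mark matches, on either strand, to 8 short motifs described further on, here the NF-Y core CCAAT, the SP core GGGCGG and the cyclic AMP response element TGACGTCA.
Ogdh, plus strand, chr11:6291347-6291596: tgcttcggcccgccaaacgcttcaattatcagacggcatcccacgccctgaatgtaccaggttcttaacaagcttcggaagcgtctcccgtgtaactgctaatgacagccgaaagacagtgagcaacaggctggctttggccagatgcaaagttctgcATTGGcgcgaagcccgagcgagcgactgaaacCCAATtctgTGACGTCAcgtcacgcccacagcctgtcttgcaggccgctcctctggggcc
Pdhb, minus strand, chr14:8172993-8173242: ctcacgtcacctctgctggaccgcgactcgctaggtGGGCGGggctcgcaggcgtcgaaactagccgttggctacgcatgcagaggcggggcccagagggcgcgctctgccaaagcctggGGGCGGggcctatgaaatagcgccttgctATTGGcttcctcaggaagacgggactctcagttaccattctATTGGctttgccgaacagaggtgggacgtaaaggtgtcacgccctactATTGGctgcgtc
Idh3b, minus strand, chr2:130284452-130284701: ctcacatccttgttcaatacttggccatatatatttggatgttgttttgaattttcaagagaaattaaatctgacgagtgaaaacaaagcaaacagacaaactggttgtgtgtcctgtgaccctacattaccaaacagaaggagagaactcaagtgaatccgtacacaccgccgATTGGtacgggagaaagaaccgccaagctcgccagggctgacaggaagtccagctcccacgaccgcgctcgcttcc
Matches in the 50 bases after a TSS are not shown. The stretches of Ogdh, Pdhb and Idh3b lay wholly inside their WT peaks and had G or C at 57.2%, 61.6% and 46.8% of their bases. Pdhb held 2 SP cores and 3 NF-Y cores, the nearest of the latter starting 12 bases before the TSS. Ogdh held 2 NF-Y cores and, 51 bases before the TSS, the response element. Idh3b held 1 NF-Y core in its GC-richer end near the TSS.

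The promoters of these enzyme genes were open in both genotypes with few exceptions, and the peaks that lacked a counterpart in the knockout were mostly weak regions away from promoters. A peak of one list was counted as having a partner when a peak of the other list overlapped it by at least 1 bp. Of the 56 WT peaks, 40 had a partner in the knockout (71.4%, Wilson 95% interval 58.5 to 81.6), against 56.1% of all 34440 WT peaks. Intervals cover counting error only. The list was rich in promoters, which made up 35 of its 56 WT peaks (62.5%) and 44.5% of the whole list. Within 1 kb of a TSS, 31 of 33 WT peaks had a partner (93.9%, 80.4 to 98.3), against 79.8% of all such peaks. Including peaks up to 3 kb away, the whole promoter class of the authors' annotation, it was 31 of 35 (88.6%), against 74.3%. Outside that class it was 9 of 21 (42.9%, 24.5 to 63.5), against 41.4%. In the reverse direction, 40 of the 41 knockout peaks overlapped a WT peak, which at 97.6% equals the 97.6% of all knockout peaks.

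By gene, 32 members had a promoter peak in WT and 30 in the knockout, and no member had one in the knockout list alone. Of the 32, 30 (93.8%) also had one in the knockout, against 77.0% of the 13794 genes with a WT promoter peak. All WT peaks had a partner in 21 of the 33 members with a WT peak (63.6%), against 46.8% of genes. Members had few peaks each, and 17 of the 33 had a single WT peak.

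Peak strength is given as a percentile, the rank of a peak's score among all peaks of its own list on a scale to 100. The scores are the authors' and are compared here within one list only. All 33 WT promoter peaks within 1 kb of a TSS scored above the median of the WT list. Their median percentile was 89.5 (quartiles 77.1 and 95.3), against 75.8 (51.3 and 89.4) for all 13126 WT peaks of that kind. In the knockout list the 31 promoter peaks had a median percentile of 81.3 (66.4 and 93.9), against 66.6 (44.2 and 84.6). With each list split by score into 10 deciles of equal size, the upper 2 held 23 of the 33 WT peaks (69.7%), against 43.2% of such peaks overall.

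**Figure D1:**
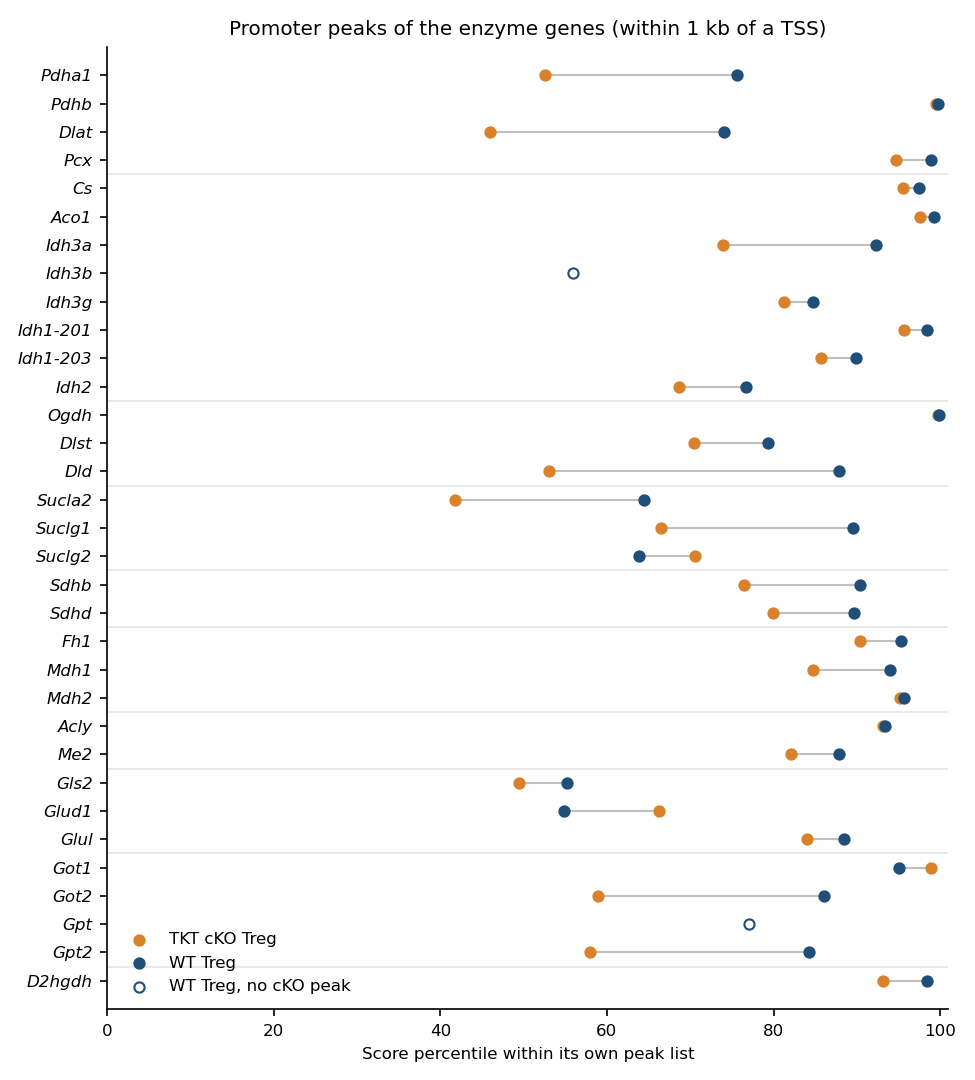
Score percentile (x axis, within each library's own list) of every promoter peak within 1 kb of a TSS, by gene and grouped by enzyme step, for WT Treg (blue) and TKT cKO Treg (orange). Open circles are the WT peaks of Idh3b and Gpt, which had no knockout peak, and ranks from lists of unequal length do not measure a change.

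Among the genes of pyruvate entry, Pdhb led in both lists. It encodes the beta subunit of the E1 component of pyruvate dehydrogenase, and its promoter peak at chr14:8172710-8173937 stood at percentile 99.7 in WT and 99.5 in the knockout. Pdha1, on the X chromosome, encodes the catalytic alpha subunit of the same component, and its main promoter peak stood at percentiles 75.6 and 52.6. That peak was 1409 bp wide in WT and 750 bp in the knockout. A second WT peak, 1913 bp inside Pdha1 and 465 bp wide, had no partner. Dlat, the acetyltransferase E2 component, stood at 74.1 in WT and 45.9 in the knockout, and Pcx, pyruvate carboxylase, at 98.9 and 94.7 (chr19:4509866-4510998 in WT). The promoters of this one complex all stood in the upper part of the WT list, and in the knockout list Pdha1 and Dlat stood near its middle. Pdhx, which anchors E3 to the complex, had no promoter peak under its own symbol and 5 peaks far downstream, described with the distal regions.

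The genes that carry citrate to alpha-ketoglutarate included 1 of the 2 members with a promoter peak in WT and none in the knockout. Mitochondrial NAD-dependent isocitrate dehydrogenase is built from the products of Idh3a, Idh3b and Idh3g. Idh3a had promoter peaks at percentiles 92.3 and 73.9, and Idh3g at 84.7 and 81.3. Idh3b had a single WT peak, at chr2:130283635-130284891, 1257 bp wide and at percentile 55.9, and no knockout peak lay within 1 kb of the RefSeq gene. The nearest knockout peak lay 8487 bp away and was assigned to Nop56. Of all 1003 WT promoter peaks within 1 kb of a TSS in the same score decile, 713 had a partner (71.1%).

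The promoters of the remaining genes of this step were shared. Cs, citrate synthase, stood at 97.5 in WT and 95.5 in the knockout. Aco1, the cytosolic aconitase that doubles as an iron regulatory protein, stood at 99.3 and 97.6 (chr4:40142605-40143926 in WT). Idh1, the cytosolic NADP-dependent isocitrate dehydrogenase, had 2 shared promoter peaks at separate start sites. The peak at chr1:65178155-65180090 stood at 98.4 and 95.7, and the one at chr1:65185765-65186927 at 89.9 and 85.7. Idh2, its mitochondrial counterpart, stood at 76.7 and 68.6. Idh2 also carried the one knockout peak of the list without a WT partner, an intergenic region at chr7:80131470-80132627. That region lay 16078 bp upstream of the TSS, at percentile 5.82 of the knockout list, and the nearest WT peak was 7632 bp away.

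The alpha-ketoglutarate dehydrogenase complex had promoter peaks in both libraries for all 3 genes. Ogdh, the E1 subunit, had the highest scoring peak of the whole group at chr11:6291343-6292856, at percentile 99.9 in WT and 99.7 in the knockout. Dlst, the E2 subunit, stood at 79.3 and 70.4. Dld, the E3 subunit shared with pyruvate dehydrogenase, stood at 87.8 in WT and 53.1 in the knockout.

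Succinyl-CoA ligase and succinate dehydrogenase also had shared promoters. Suclg1, the alpha subunit of the ligase, stood at 89.5 in WT and 66.5 in the knockout. Sucla2, the ADP-forming beta subunit, stood at 64.4 and 41.7, and Suclg2, the GDP-forming one, at 63.9 and 70.6. Sdhb, the iron-sulfur subunit of succinate dehydrogenase, stood at 90.4 and 76.4, and Sdhd, a membrane anchor, at 89.7 and 79.9. The flavoprotein gene Sdha and the other anchor gene, Sdhc, had no peak under their own symbols. The start site of Sdha is described below.

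The genes from fumarate to oxaloacetate were among the strongest. Fh1, fumarase, stood at 95.3 in WT and 90.4 in the knockout, and mitochondrial malate dehydrogenase, Mdh2, at 95.7 and 95.2. Cytosolic malate dehydrogenase, Mdh1, stood at 94.0 and 84.7, and a second WT peak of 497 bp, 2548 bp inside the gene, had no partner. Of the genes that take carbon off the cycle, Acly, which splits exported citrate into acetyl-CoA, stood at 93.4 and 93.1. Me2, the mitochondrial malic enzyme, stood at 87.8 and 82.1 at its promoter. All 3 WT peaks of Acly and Me2 had partners.

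The glutamine and glutamate genes shared all 4 of their WT peaks. Glul, glutamine synthetase, stood at percentile 88.5 in WT and 84.0 in the knockout. Gls2, a glutaminase, and Glud1, glutamate dehydrogenase, had 2 of the 3 lowest percentiles among the WT promoters within 1 kb. Gls2 stood at 55.2 in WT and 49.4 in the knockout, and Glud1 at 54.9 and 66.3. The Glud1 promoter peak at chr14:34309831-34311888 was nonetheless the widest of the WT promoter peaks of the list, at 2058 bp, and 1500 bp wide in the knockout.

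Of the transaminases, which interconvert glutamate and alpha-ketoglutarate, 3 of 4 had a knockout promoter peak. Got1, the cytosolic aspartate enzyme, stood at 95.1 in WT and 98.9 in the knockout. Got2, its mitochondrial partner in the malate-aspartate shuttle, stood at 86.0 and 58.9. Gpt2, the mitochondrial alanine enzyme, stood at 84.3 and 58.0. Gpt, the cytosolic alanine enzyme, had a single WT peak at chr15:76697713-76698358, 646 bp wide and at percentile 77.1, with no partner, and the nearest knockout peak lay 2841 bp away and was assigned to Mfsd3. In the score decile of this Gpt peak, 1851 of 1932 WT promoter peaks within 1 kb of a TSS had a partner (95.8%), so a missing partner was rarer there than in the decile of Idh3b. This peak belonged to the start of the transcript Gpt-203 and lay within the RefSeq gene (chr15:76696726-76699675), whose ends it did not reach. It was the narrowest of the 33. D2hgdh, which oxidises D-2-hydroxyglutarate back to alpha-ketoglutarate, stood at 98.4 and 93.1.

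**Figure D2:**
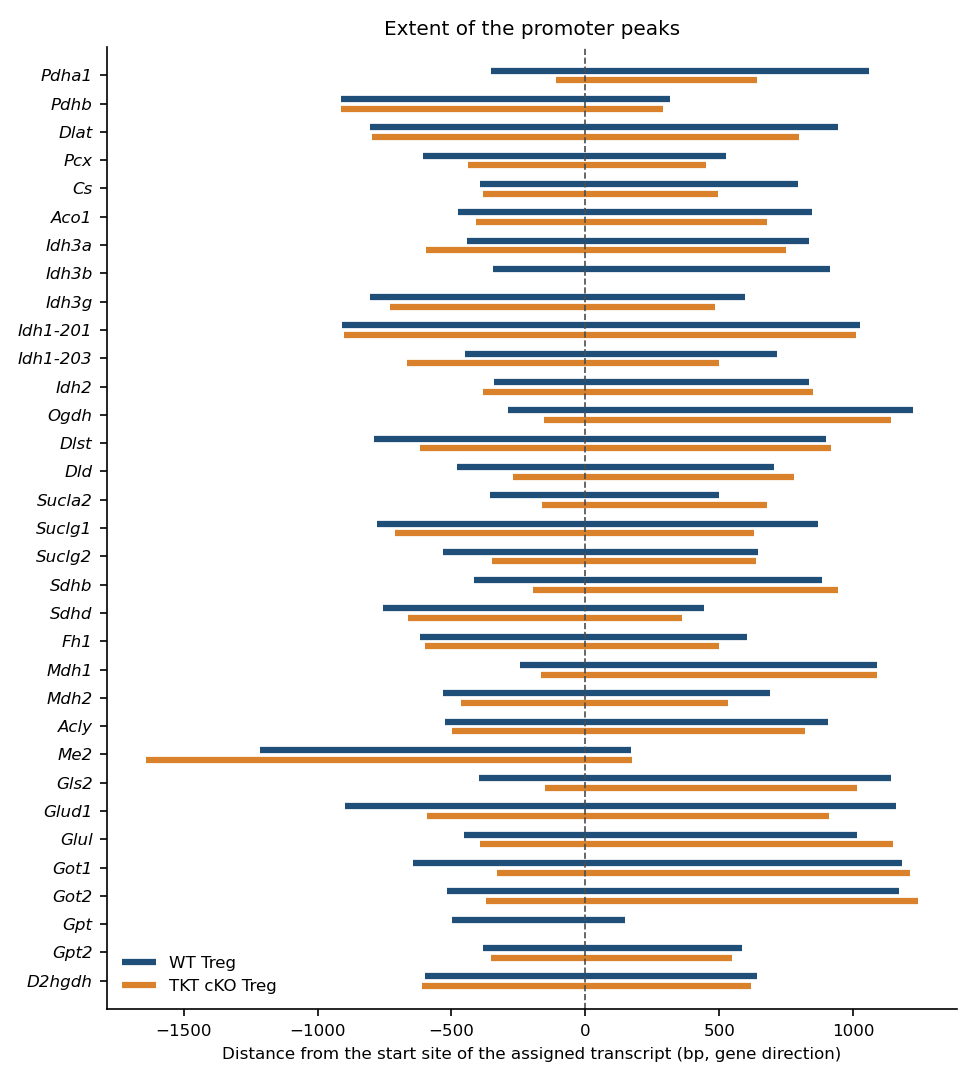
Extent of each promoter peak in bp from the start site of the transcript it was assigned to (dashed line, upstream to the left), for WT Treg (blue) and TKT cKO Treg (orange). All peaks span the start site, Idh3b and Gpt have a WT peak and no knockout peak, and Me2 reaches farthest upstream.

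Peaks spanned their start sites with similar outlines in the 2 libraries. The median WT promoter peak spanned 1300 bp, compared with 1184 bp over all WT peaks within 1 kb of a TSS, and reached a median of 516 bp upstream (243 to 1213 bp). In the knockout 26 of the 31 shared promoter peaks were narrower than in WT, and the median ratio of widths was 0.899. Among all 11280 shared promoter pairs 85.7% were narrower in the knockout, with a median ratio of 0.854.

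The authors assigned each peak to 1 gene, and for Sdha and Pdhx a peak over the start site carried a neighbour's name. The RefSeq TSS of Sdha lay in a peak assigned to Ccdc127 in both libraries (chr13:74349701-74350765 in WT), at percentiles 91.0 and 77.9. That of Pdhx lay in a peak assigned to Apip (chr2:103073082-103074444 in WT), at 89.6 and 68.3. Of the 30 members with a RefSeq start site in the table used, all 30 had one inside a WT peak and 29 inside a knockout peak, Idh3b being the exception. Among all 27025 genes with such a start site, 10039 had one inside a WT peak, 8621 inside a knockout peak and 8530 in both. The opposite ambiguity was also present. Of the 33 WT promoter peaks, 9 (27.3%) held the RefSeq TSS of a neighbouring gene, a share not counted over all promoter peaks. The neighbours included Timm8b beside Sdhd, Ssr4 beside Idh3g, Wdpcp beside Mdh1, Styxl1 beside Mdh2, Shld2 beside Glud1 and Pikfyve beside Idh1. In the remaining peaks the neighbour was Gm39547 (Pdha1), Gm46270 (Ogdh) or Gm38440 (Glul). Accessibility at such a peak cannot be credited to either gene alone.

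**Figure D3:**
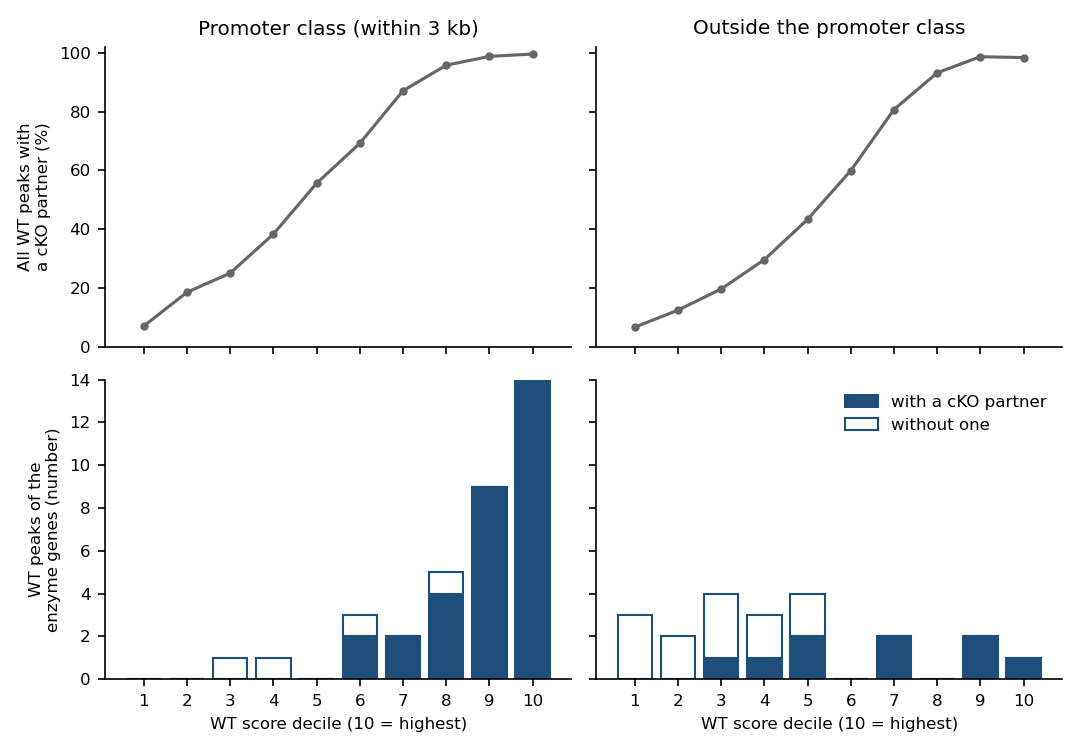
Upper panels show the percent of all WT peaks with a knockout partner by WT score decile, lower panels the number of WT peaks of the enzyme genes in each decile, with a partner (filled) and without (white), for the promoter class (left) and other peaks (right). The 23 promoter peaks in deciles 9 and 10 all had partners, and the 12 other peaks without one lay in deciles 1 to 5.

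Having a partner went with peak strength, as it did in the whole list. The 23 member promoter peaks in deciles 9 and 10 all had a partner, as did 98.8% and 99.6% of all promoter-class peaks in those deciles. Outside the promoter class, the 5 member peaks in deciles 7, 9 and 10 had partners, as did 80.7%, 98.7% and 98.4% of all such peaks in those deciles. Of the 16 member peaks in deciles 1 to 5, 12 had none, near the 78.1% of all 12610 such peaks without one. The 16 unpartnered WT peaks, promoters included, spanned a median of 586 bp and had a median percentile of 27.1. Of these, 3 were narrower than 465 bp, the narrowest peak of the knockout list.

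The members had 21 WT regions outside the promoter class, and the strong ones were shared. The strongest lay 5480 bp upstream of Got1 at chr19:43530085-43531364, in intergenic DNA, at percentile 90.8 in WT and 88.1 in the knockout. An intergenic region 19678 bp upstream of Me2 (chr18:73835070-73836490) stood at 83.0 and 81.9. In each list both ranked below the promoter of the same gene.

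Pdhx had the most WT peaks of any member, 5 in a row over chr2:102990457-103019724, all beyond the end of the RefSeq gene and overlapping no RefSeq gene. The strongest, at chr2:102998435-103000089, stood at 83.9 in WT and 66.7 in the knockout and was nearly as wide in both, 1655 and 1653 bp. Those at chr2:103004221-103005097 and chr2:103018973-103019724 stood at 43.5 and 46.4 in WT and at 20.5 and 11.1 in the knockout. The other two, chr2:102990457-102990889 and chr2:103012619-103013238, stood at 13.1 and 20.1 in WT and had no partner. The 3 stronger peaks of the row were thus the shared ones.

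The remaining shared regions belonged to Mdh2, Glud1, Dlst and Idh2. The Mdh2 region, intergenic and 15651 bp downstream of its TSS (chr5:135794131-135794958), stood at 68.9 in WT and 17.3 in the knockout. The Glud1 region, in the first intron (chr14:34316844-34318491), stood at 62.3 and 18.3, and was 1648 bp wide in WT and 603 bp in the knockout. Dlst had a shared exonic peak (chr12:85122998-85123868) at 35.7 and 47.1. The shared region lowest in the WT list lay 7636 bp upstream of Idh2 (chr7:80123028-80123837), at 20.1 and 12.0.

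The 12 WT regions outside promoters without a partner stood between percentiles 5.71 and 45.5. Suclg2 had the most, 3 intronic peaks at chr6:95515611-95516082, chr6:95552304-95553096 and chr6:95613014-95614125 with percentiles of 43.8, 25.8 and 19.7, while its promoter was shared. Besides the Pdhx pair, Idh3a had 2, one in its own last intron (chr9:54602587-54603139, percentile 5.71) and one in an intron of Acsbg1 (chr9:54611911-54613090, 36.8). Both ranked far below the Idh3a promoter. Dlst had 1 in an intron (chr12:85127020-85127533, 45.5), and Suclg1 1 in its first intron (chr6:73254601-73255458, 25.7). Dld had 1 in intergenic DNA (chr12:31374543-31374902, 9.57), at 360 bp as narrow as any peak of the WT list, and Sdhd 1 likewise intergenic (chr9:50590971-50591394, 36.5). Gpt2 had 1 over an exon (chr8:85509042-85509720, 7.92).

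**Figure D4:**
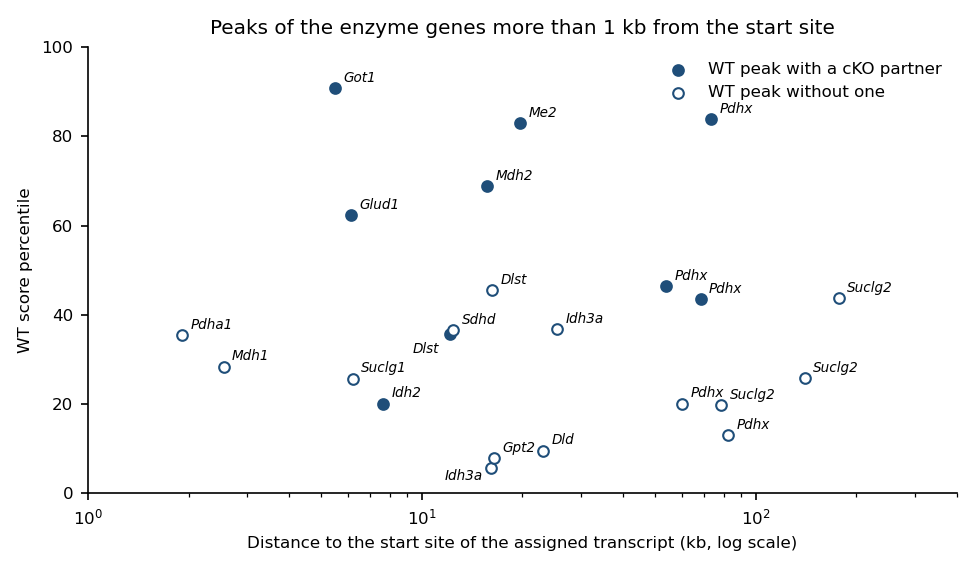
WT score percentile against distance (kb, log scale) to the start site of the assigned transcript, for the 23 WT peaks more than 1 kb from it, with filled circles where a knockout peak overlapped. The 5 peaks above percentile 60 all had a partner, among them those of Got1, Me2 and Mdh2.

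To compare ranks on equal terms, the 19151 pairs of WT and knockout peaks that were each other's best match were ranked within each library over the same set of pairs. Over the 31 member promoter pairs, the median difference in percentile, knockout minus WT, was -0.256 points (quartiles -5.25 and 4.42), against -1.18 (-8.00 and 5.36) for all 11280 promoter pairs. Ranks were lower in the knockout for 17 and higher for 14. Ogdh stood at 99.8 in WT and 99.7 in the knockout, and Pdhb at 99.4 and 99.5, where a rank has no room to be higher. The span from the level of 5% to that of 95% of all promoter pairs ran from -20.1 to 20.5 points, and 4 of the 31 lay outside it. By construction 5% of all promoter pairs lie below this span and 5% above. The same span was used at every rank, although differences spread more widely at low WT ranks. Promoter pairs with WT ranks of 95 or more had knockout ranks of 75 or more, while those at 25 to 30 ranged from below 5 to at least 75. Glud1 stood at 26.2 in WT and 65.4 in the knockout, a difference of 39.2 points, Suclg2 differed by 31.8 points (38.0 to 69.8), and Gls2 by 21.6 (26.5 to 48.1). Dld stood at 78.2 and 51.8, a difference of -26.3 points. These members were singled out after their values were seen. The 3 above the span had WT ranks below 39.8, the lower quartile of all promoter pairs. Outside promoters, on the same scale, the Dlst exonic region differed by 35.4 points (10.2 to 45.6), the Mdh2 region by -30.2 and the Glud1 intronic region by -19.2.

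Base composition moved with the rank differences of the member promoters that have a RefSeq window. This leaves out Gls2 (21.6 points), Idh3a (-12.9) and Me2 (3.35), which have no window. With 1 window per gene it also leaves out the Idh1 promoter peak starting at chr1:65178155 (-1.63). Among 27 members with a shared promoter and a RefSeq window, the GC content of the 300 bases around the TSS was highest in Glud1 (81.0%) and lowest in Dld (47.0%). Suclg2 had 67.7%, and Suclg1, at 51.0%, differed by -15.7 points. Across these 27 promoters GC content and rank difference had a Pearson r of 0.80 and a Spearman rho of 0.61, and without the 2 promoters farthest from the median GC content r was 0.57. All the points come from the same 2 libraries. Across 7311 promoters of all genes r was 0.11 and rho 0.12. The median difference was -2.23 points in the GC-poorest of 5 groups of about equal size, -2.95, -2.78 and -1.62 in the next 3, and 0.627 in the richest, so that it did not climb steadily with GC content. The part of base composition in the differences was not tested.

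**Figure D5:**
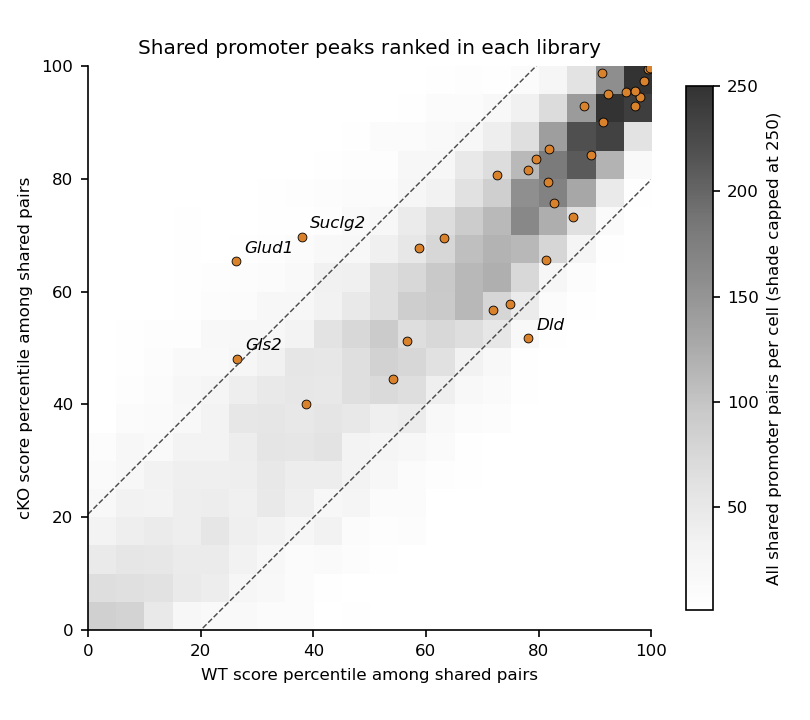
Score percentile of shared promoter peaks in WT (x axis) and TKT cKO Treg (y axis), both ranked over the same 19151 shared pairs, with grey shading for the number of promoter pairs of all genes and orange points for the 31 of the enzyme genes. Dashed lines bound 90% of all promoter pairs, and Glud1, Suclg2 and Gls2 lie above them and Dld below.

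The 8 motifs were searched on both strands in 1 window of 300 bases per gene, 250 before to 50 after the TSS, for the 30 members with a start site in a WT peak. The background was the 10039 genes with a start site in a WT peak. The NF-Y core CCAAT was present in 17 of 30 windows (56.7%), against 39.6% of background genes, and the SP core GGGCGG in 22 (73.3%), against 65.8%. The ETS core CCGGAAG was present in 6 of the 30, against 19.9%, among them Sdhb, Sdhd and Idh3g. The core CATGCGC of the site for NRF1, a regulator of nuclear genes for mitochondrial proteins, was present in 3 (10.0%), against 7.51%. The response element TGACGTCA was found in Ogdh and Mdh2 (6.67%), against 3.57%. The TATA box TATAAA was found in Got2 alone (3.33%), against 6.58%. The YY1 core AAGATGGC was found in Idh3g (3.33%, against 4.92%), and CAAGGTCA, the core of the site for the oestrogen-related receptors, in Sdhd (3.33%, against 0.887%). A match describes the letters in the window and is not a bound site.

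By assigned symbol, a smaller share of the genes of the wider pathway had peaks. Of 40 further genes of pyruvate control, transport, cofactor supply and glutamate metabolism, 28 had a WT peak and 23 a knockout peak, and 12 had none in either list. The start sites of these 12 were not checked for peaks carrying a neighbour's name, as found for Sdha and Pdhx. Of their 48 WT peaks, 34 had a partner (70.8%, 56.8 to 81.8), against 56.1% of all WT peaks, and 24 genes had a WT promoter peak against 21 in the knockout. Mpc1, a subunit of the mitochondrial pyruvate carrier, stood at 98.9 and 97.7 at its strongest peak. Only the WT list held a promoter peak for 3 of the 40 genes, Asns, asparagine synthetase, at percentile 44.8, Slc25a13, an aspartate-glutamate carrier, at 45.8, and Dhtkd1, a dehydrogenase of 2-oxoadipate, at 23.0.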

How the data were processed

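Each deposited list holds the peaks of 1 ATAC-seq library. The build was mm10 and the tools BWA, MACS2, Trimmomatic and FastQC, per the submitters' processing notes. The sources used here do not give versions, settings, the handling of duplicate and mitochondrial reads, any Tn5 shift or the annotation tool. The peak score, deposited by the authors without a stated scale, served to rank peaks, and to filter them, within a list or over a common set of pairs. The deposited positions, widths and distances are in bp. Each width equals end minus start plus 1, so positions were read as counted from 1.

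Peaks were taken by the authors' gene symbol. Overlaps were computed in Python 3.11.15 with pandas 2.3.3, tested on simulated data, and differed from bedtools 2.31.1 at 0 of 34440 WT and 0 of 19680 knockout peaks. Shares carry Wilson 95% intervals (scipy 1.17.1). With 1 library per group no test was made. All 35 symbols matched the RefSeq gene table (GRCm38.p6) and 30 its promoter table. Idh3a, Sdhc, Me2, Gls2 and Gpt have no entry used here. All members with a peak are accounted for by enzyme step. Coordinates are given for the 5 highest scoring promoters, promoters or peaks without a partner and peaks outside promoters. Sequences were chosen as the 2 highest scoring shared promoters and the 2 highest scoring WT promoters without a partner (Gpt is named only). Alternatives changed the overlap, score threshold, list length, width, distance and members. The members, lists, motifs and steps were chosen with earlier results of these data known. The ranking of shared pairs, base composition, motifs and start-site assignment were added after the peaks were seen. Some results are not reported here.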

Additional observations from a re-analysis of the deposited data

How the results depend on the processing

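Of 52 recomputed values, 44 stayed within the 95% interval of the value reported or, for counts of genes, within 1.5 times it. All 8 that moved came from settings in which fewer peaks or genes entered. The settings on width and on members also had fewer peaks, and no value moved there. Why the 8 moved was not tested. One setting kept only the scores above the median of each list. In it 100% of member knockout peaks had a WT partner, against 99.4% of all knockout peaks. There, 5 members had a promoter peak in WT and none in the knockout (Dlat, Gls2 and Sucla2 beside Gpt and Idh3b), a count not made over all genes. The median promoter percentiles of the members were then 79.1 in WT and 66.1 in the knockout (88.5 and 81.3 with all peaks). Those of all promoter-class peaks in the same lists were 63.7 and 55.3. With both lists reduced to the same number of peaks, 90.5% of member WT peaks had a partner, against 83.0% of all WT peaks. Within 10 kb of a TSS, 87.2% of WT and 100% of knockout member peaks had one, against 64.7% and 98.5% of all. With start sites from RefSeq, chosen after seeing the data, 1 member of 30 (Idh3b) was open in WT and not in the knockout, because Gpt has no entry in that table. Gpt and Idh3b made up the pair in the other 6 planned settings. No paired analysis was possible because the genotypes are represented by 1 library apiece, which also leaves no replicate to omit. Depth was unknown and limits every missing peak.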
